A study of Homo sapiens with 12 samples.

Results

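The 37 genes of the human mitochondrial genome were examined in DU145 prostate cancer cells that had received palbociclib or only its solvent, dimethyl sulfoxide (DMSO). They were taken as every gene that the DU145 count table places on the mitochondrial chromosome (MT). This gave 37 of the 57167 genes of that table, namely 13 mRNA genes, 2 rRNA genes and 22 tRNA genes. The series measured RNA in 12 libraries of the lines C4-2 and DU145 to ask how CDK4/6 acts on STING signalling in prostate cancer. In the table labelled C4-2 the same 37 genes were listed at 0 in every library, so only the 6 DU145 libraries were used. DU145 is an established line from a brain metastasis of prostate carcinoma and is known to lack functional RB1. Of its 6 libraries, 3 came from cells given palbociclib, an inhibitor of the kinases CDK4 and CDK6, and 3 from cells given DMSO. All were grown in RPMI-1640 medium with 10% serum, and no allele was engineered according to the labels. The sources used here state neither the dose of palbociclib nor how long it was given, nor that libraries of the same group derive from separate cultures. The spread on which the p-values rest may therefore be technical.

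The mitochondrial genome is a small circle that is copied and transcribed apart from the nucleus by its own polymerases. Both of its strands are read as long precursors, and tRNAs that lie between the mRNAs and rRNAs are cut out of them to release the mature RNAs. The mRNAs encode subunits of complexes I, III, IV and V of oxidative phosphorylation, the rRNAs form the mitochondrial ribosome, and every other protein that the organelle needs is made from nuclear genes. By the strand column of the table, 28 of the 37 genes were transcribed from the heavy strand and 9 from the light strand, which carries MT-ND6 and 8 tRNAs.

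Library totals ran from 16108999 to 16674393 counts, so that a count of 0 in a library allows a level of up to 0.180 to 0.186 CPM (counts scaled to a common library total), taking 3 counts as the limit and counting error only. The libraries numbered 3 stood apart within each group. The chi-square per degree of freedom, computed from genes holding 20 counts or more in a pair, was 2.36 and 2.37 between libraries 1 and 2 of a group and 5.41 to 8.34 in pairs that held library 3, against 61.5 to 67.4 between treatments. The keratins KRT8, KRT18 and KRT7, which mark this epithelial line, were abundant but lower with palbociclib, at 1308, 415 and 415 CPM against 1739, 632 and 967 with DMSO. CDKN2A, the remaining abundant marker of the list, was at 416 CPM against 387 and was not called (0.13, edgeR adjusted p = 0.203). KRT19 was near 0, and KLK3, KLK2 and FOLH1 of luminal prostate cells had 0 counts in all 6 libraries. The summed leukocyte markers were at 3.15 to 4.10 CPM with palbociclib and 0.305 to 0.372 with DMSO, nearly all of it CD14, while PTPRC and CD3E had 0 counts. Endothelial markers summed to 0.960 to 1.88 CPM with palbociclib and 0.681 to 1.16 with DMSO. Fibroblast markers summed to 54.3 to 63.4 and 56.6 to 64.8 CPM, nearly all of it COL1A1 and PDGFRB. COL1A1 was higher with palbociclib (0.24, edgeR adjusted p = 0.0334) and PDGFRB lower (-0.59, adjusted p = 1.01e-04). The part of all these markers in the mitochondrial results was not tested.

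Mitochondrial transcripts held a smaller share of all counts with palbociclib. Their share was 4.92, 4.85 and 4.40% in DMSO libraries 1, 2 and 3, and 3.37, 3.31 and 3.07% in the palbociclib libraries. Every palbociclib library lay below every DMSO library. The means were 3.25 ± 0.16% and 4.72 ± 0.28% (SD, n = 3 each), a difference of -1.47 percentage points, with an exact two-sided permutation p of 0.1, the smallest that 3 against 3 libraries can give. Without both libraries numbered 3 the difference was -1.54 points. In bulk RNA a smaller number of mitochondrial genomes, less RNA from each of them and a larger nuclear contribution cannot be told apart, and neither can fewer cells and less RNA per cell.

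The 3 RNA classes changed their shares. The rRNAs made up 12.9, 13.8 and 14.2% of mitochondrial counts with DMSO and 10.8, 10.3 and 9.23% with palbociclib. The mRNAs went from 85.7 ± 0.66% to 89.3 ± 0.85% of mitochondrial counts, and the tRNAs from 0.697 ± 0.042% to 0.573 ± 0.031%. For each class the groups did not overlap, and each exact permutation p was 0.1. Without both libraries numbered 3 the difference in the rRNA share was -2.72 points, against -3.47 with all 6.

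**Figure D1:**
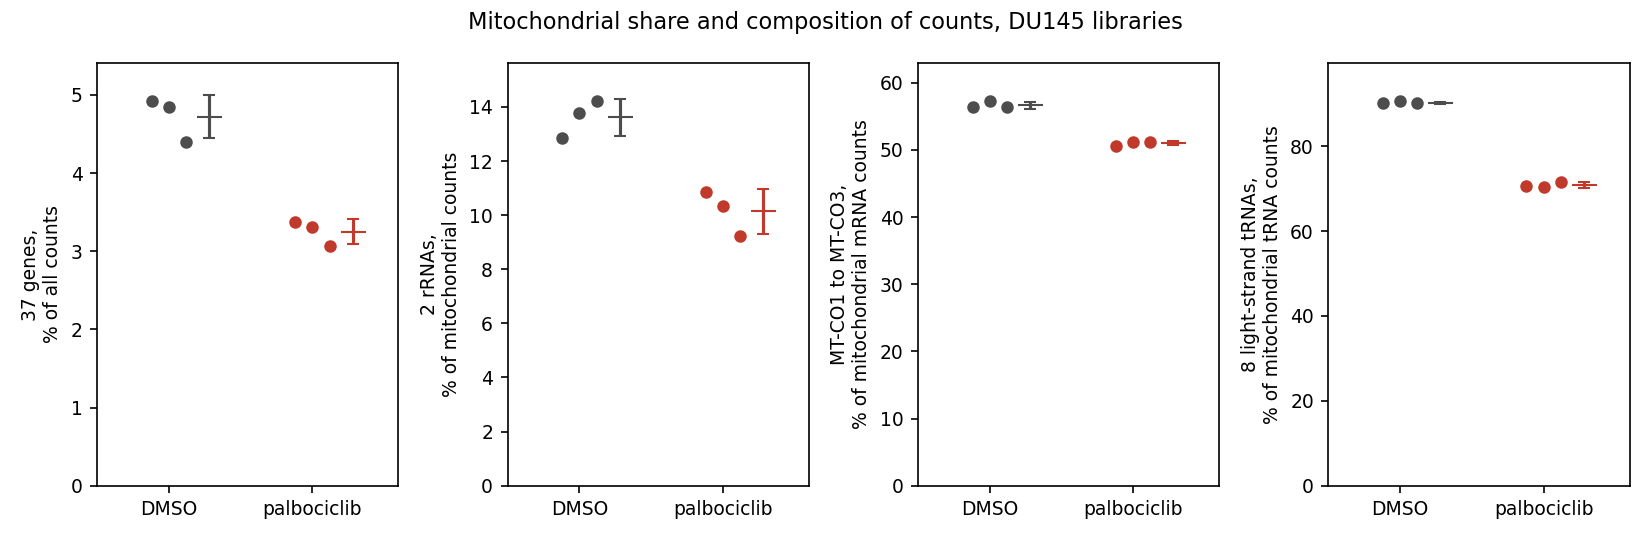
Share and composition of mitochondrial counts in the 6 DU145 libraries, in percent, with 1 point per library and the mean ± SD beside each group. From left to right the panels show the 37 genes among all counts, the 2 rRNAs among mitochondrial counts, MT-CO1 to MT-CO3 among mitochondrial mRNA counts, and the 8 light-strand tRNAs among mitochondrial tRNA counts; in each panel the palbociclib libraries lie below the DMSO libraries.

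Of the 37 genes, 28 passed the expression filter and were tested in a fit over 15361 genes with edgeR's quasi-likelihood test, at a Benjamini-Hochberg adjusted p under 0.05. Palbociclib lowered 15 of them and raised 6, and 7 were not called. Over all tested genes, 29.2% were called lower and 28.8% higher, 58.1% in all. The median log2 fold change was -0.24 over the 28 genes and -0.01 over all tested genes. In the 21 called genes the CPM of the groups did not overlap, and over all tested genes 33.4% were lower without overlap and 29.4% higher without overlap. The 9 genes that could not be tested are tRNAs with 0 to 19 counts per library. A further 2, MT-TI and MT-TS2, reached the filter level in all 3 palbociclib libraries but in only 1 and 2 DMSO libraries, respectively. The filter asks for 3 libraries of any group, so neither would have passed on its DMSO libraries alone. Without both libraries numbered 3, 17 were lower and 4 higher.

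**Figure D2:**
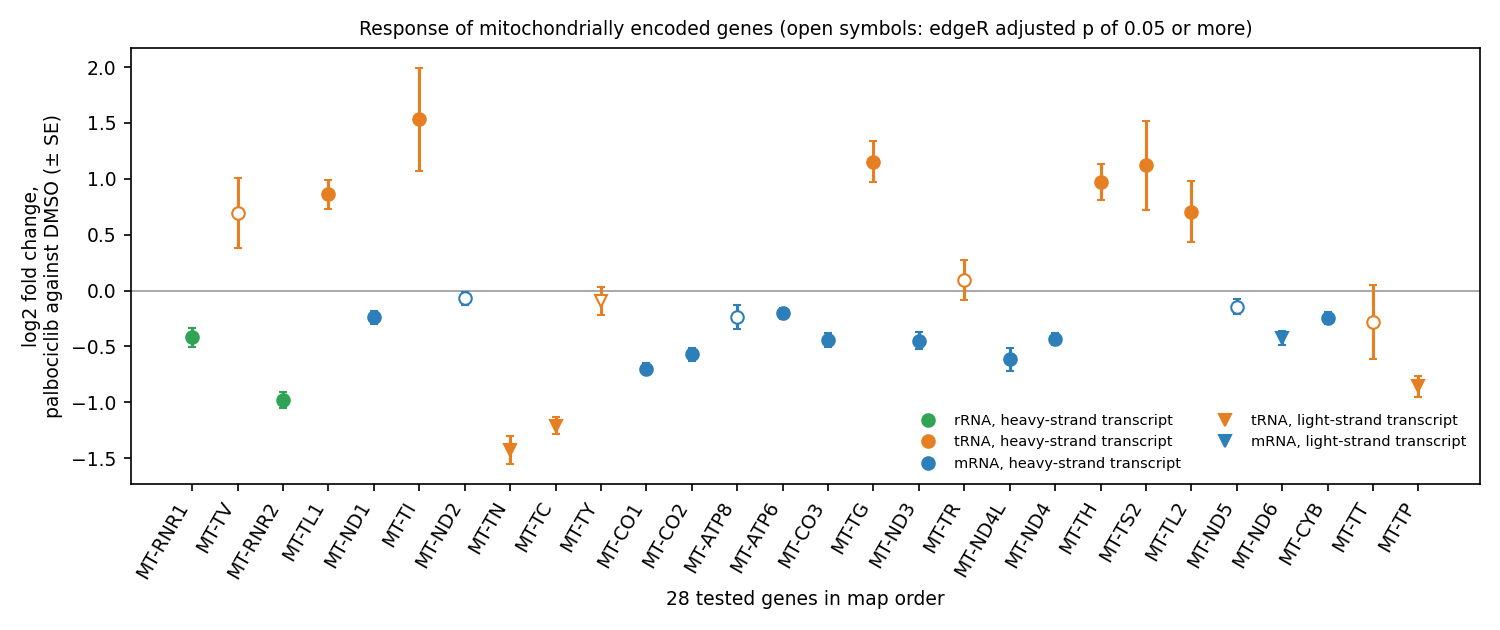
Log2 fold change (palbociclib against DMSO) ± SE from edgeR for the 28 tested mitochondrial genes, set in their order along the genome; circles are heavy-strand genes, triangles light-strand genes, and open symbols genes that were not called. The rRNAs and mRNAs lie below 0, the called heavy-strand tRNAs above 0, and MT-TN, MT-TC and MT-TP of the light strand below -0.8.

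Among rRNAs and mRNAs, MT-RNR2 had the largest fall and the rRNAs changed by different amounts. MT-RNR2 (16S rRNA of the large ribosomal subunit; MT:1671-3229, heavy strand) had 94854, 100562 and 96045 counts with DMSO and 54962, 50753 and 42851 with palbociclib. It was 1.97-fold lower (log2 fold change -0.98, SE 0.07, edgeR adjusted p = 2.53e-09). MT-RNR1 (12S rRNA of the small subunit; MT:648-1601) had 6945, 7343 and 6459 counts with DMSO and 5631, 5606 and 4362 with palbociclib, a 1.34-fold fall (-0.42, SE 0.08, adjusted p = 3.85e-04). Per length, in FPKM (CPM divided by gene length in kilobases), MT-RNR2 stood 8.36, 8.38 and 9.10 times above MT-RNR1 with DMSO and 5.97, 5.54 and 6.01 times above it with palbociclib. Every palbociclib library thus lay below every DMSO library in this ratio, and the ratio of their counts gave an exact permutation p of 0.1. The 2 genes lie next to each other on the same strand, with only the 69-base tRNA gene MT-TV between them. The sources used here do not state whether rRNA was removed or polyadenylated RNA selected before library construction, and rRNA levels depend on that step.

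The mRNAs of complex IV, cytochrome c oxidase, all fell and took a smaller share of mitochondrial mRNA counts. MT-CO1, its catalytic core subunit (MT:5904-7445), had 210010, 207000 and 191280 counts with DMSO and 126918, 125379 and 124120 with palbociclib. This was a 1.62-fold fall (-0.70, SE 0.05, edgeR adjusted p = 1.42e-09), which put it at percentile 13.8 of the log2 fold changes of all tested genes. MT-CO2, which carries the copper centre that takes electrons from cytochrome c (MT:7586-8269), went from 90692, 89429 and 80917 counts to 61002, 60156 and 55430, a 1.49-fold fall (-0.57, SE 0.06, adjusted p = 1.36e-07). MT-CO3, the remaining mitochondrial subunit (MT:9207-9990), went from 84753, 86694 and 74409 to 62487, 62936 and 56381, a 1.36-fold fall (-0.44, SE 0.06, adjusted p = 8.08e-06). No palbociclib library reached the lowest DMSO library for any of the 3. Their summed share of mitochondrial mRNA counts was 56.3, 57.2 and 56.4% with DMSO and 50.6, 51.1 and 51.2% with palbociclib (exact permutation p = 0.1).

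Complex I, NADH dehydrogenase, takes 7 subunits from the mitochondrial genome, and 5 of their mRNAs fell. MT-ND4 (MT:10760-12137) had 77242, 73489 and 68332 counts with DMSO and 54850, 55268 and 52492 with palbociclib (-0.44, SE 0.05, edgeR adjusted p = 2.08e-06). MT-ND3 (MT:10059-10404) had 12491, 12043 and 10013 counts against 8842, 8658 and 7948 (-0.45, SE 0.07, adjusted p = 5.72e-05). MT-ND4L (MT:10470-10766) had 13766, 12850 and 9698 against 9024, 7851 and 6959 (-0.61, SE 0.10, adjusted p = 6.79e-05). These 3 neighbours on the map encode membrane-arm subunits, and in each the groups were apart although DMSO library 3 was the lowest of its group. MT-ND1 (MT:3307-4262), at the junction of the membrane arm with the arm that binds NADH, had 25710, 24359 and 23542 counts against 22380, 20647 and 19606 and fell as well (-0.24, SE 0.06, adjusted p = 0.00218). MT-ND6 (MT:14149-14673), the only mRNA of the light strand, had 8189, 8009 and 8296 against 6646, 6009 and 5676 (-0.43, SE 0.06, adjusted p = 2.13e-05).

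The other complex I mRNAs, MT-ND2 and MT-ND5, were not called. MT-ND2 (MT:4470-5511) had 32885, 31959 and 28185 counts with DMSO and 30551, 29935 and 28565 with palbociclib, and the groups overlapped (-0.07, SE 0.06, edgeR adjusted p = 0.334). MT-ND5 (MT:12337-14148) had 28106, 27203 and 26876 against 27675, 24561 and 22556, also with overlap (-0.14, SE 0.07, adjusted p = 0.0684). Both encode antiporter-like subunits of the membrane arm, as MT-ND4 does. Whether the calls hold depended on single libraries: MT-ND2 passed without DMSO library 3 (-0.14, adjusted p = 0.0396) and MT-ND5 without palbociclib library 1 (-0.22, adjusted p = 0.00847). Without both libraries numbered 3, MT-ND2 also passed (-0.11, adjusted p = 0.00808).

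Of the mitochondrial mRNAs of complexes III and V, MT-CYB and MT-ATP6 fell and MT-ATP8 was not called. MT-CYB, cytochrome b of complex III (MT:14747-15887), had 41677, 40182 and 39467 counts with DMSO and 35235, 34142 and 33510 with palbociclib (-0.24, SE 0.05, edgeR adjusted p = 4.88e-04). MT-ATP6, which forms the proton channel of ATP synthase (MT:8527-9207), had 58469, 55974 and 53106 against 48673, 50002 and 47520 (-0.20, SE 0.05, adjusted p = 0.0028). In both genes the groups did not overlap. MT-ATP8, the small membrane subunit of the same enzyme (MT:8366-8572), had 484, 454 and 430 against 345, 364 and 456 and was not called (-0.24, SE 0.11, adjusted p = 0.0634). Palbociclib library 3 lay inside the DMSO range. Without that library MT-ATP8 was lower (-0.37, adjusted p = 0.00279), and it also passed without DMSO library 3 (-0.28, adjusted p = 0.0486). In shares of mitochondrial mRNA counts, complex I went from 28.6 to 31.7%, complex III from 6.17 to 7.14%, complex V from 8.58 to 10.2% and complex IV from 56.6 to 51.0%, each with an exact permutation p of 0.1.

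The order of levels per length changed at the top. With DMSO the highest mean was that of MT-CO1 at 8111 ± 478 FPKM (SD, n = 3), then MT-CO2 at 7847 ± 552, whose range overlapped it, MT-CO3 at 6449 ± 576 and MT-ATP6 at 5058 ± 288. With palbociclib MT-CO2 (5193 ± 289), MT-CO1 (4909 ± 73.1), MT-CO3 (4664 ± 306) and MT-ATP6 (4318 ± 134) each overlapped the next in that order. With palbociclib, neighbours among these 4 mRNAs thus could not be ranked beyond their spread, although MT-CO2 and MT-CO1 each stayed above MT-ATP6 in range. MT-CO1 exceeded MT-CO2 in each DMSO library, by a ratio of 1.03, 1.03 and 1.05, and was below it in each palbociclib library, at 0.923, 0.925 and 0.993. MT-RNR2 was above MT-ND4 with DMSO (3843 ± 131 against 3269 ± 230 FPKM) and below it with palbociclib (1917 ± 245 against 2373 ± 78.3), and neither pair of ranges overlapped. Among the 15 mRNAs and rRNAs, MT-RNR1 and MT-ATP8 were the lowest in both groups, at 447 ± 32.1 and 136 ± 9.23 FPKM with DMSO and 329 ± 47.4 and 113 ± 16.7 with palbociclib.

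**Figure D3:**
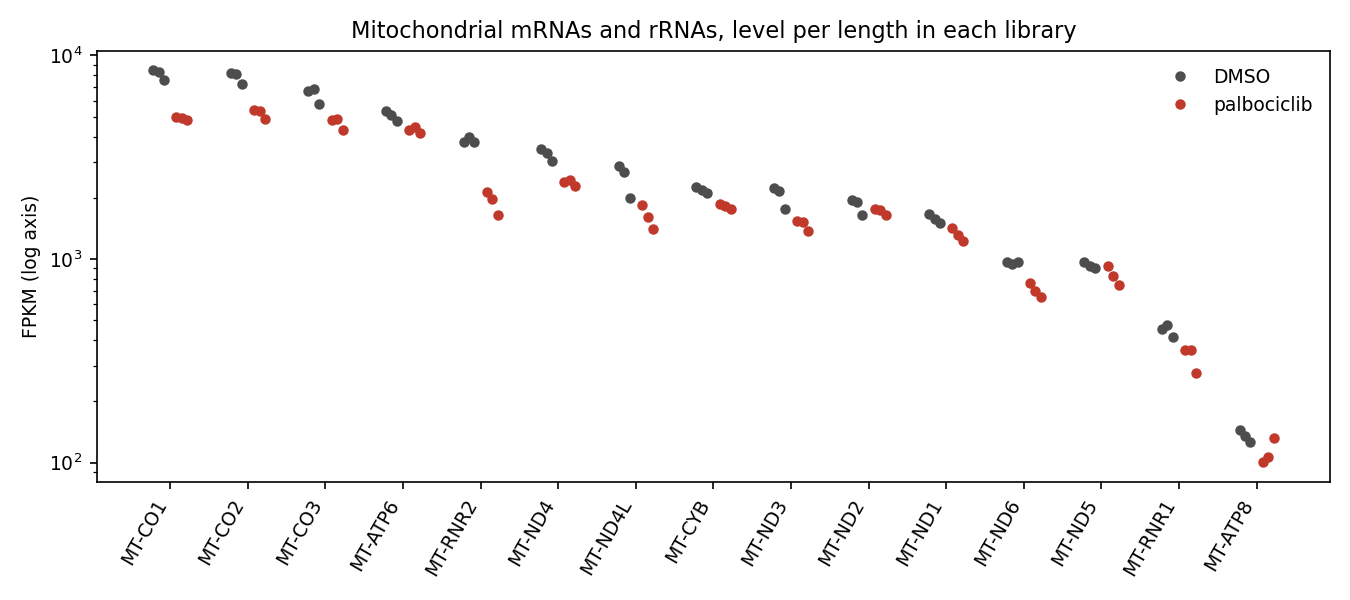
Levels of the 13 mRNAs and 2 rRNAs in FPKM (log axis) in each of the 6 libraries, in the order of their DMSO mean. MT-RNR2 and MT-CO1 show the widest gap between group means, and the points of MT-ND2, MT-ND5 and MT-ATP8 overlap.

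MT-ATP8 was counted at a far lower level than the gene it shares a transcript with. The ratio of MT-ATP6 to MT-ATP8 in FPKM was 36.7 to 37.5 with DMSO and 31.7 to 42.9 with palbociclib. These genes overlap by 46 bases (MT:8527-8572), and MT-ND4L and MT-ND4, which also share a transcript, by 7 bases (MT:10760-10766), with an FPKM ratio of MT-ND4 to MT-ND4L of 1.21 to 1.52 and 1.31 to 1.63. The ends of the upstream genes show the overlap, with the bases that belong to both genes in capitals (5′ to 3′, GENCODE release 29 transcripts on GRCh38):
MT-ATP8, 8503 to 8572: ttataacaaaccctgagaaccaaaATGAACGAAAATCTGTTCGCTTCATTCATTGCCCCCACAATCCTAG
MT-ND4L, 10736 to 10766: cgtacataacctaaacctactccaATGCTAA
In each, the capitals open with the start codon of the downstream gene. How reads over shared bases, or over both genes of such a transcript, were assigned is not stated in the sources used here, so values of MT-ATP8 and MT-ND4L are uncertain to that extent.

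The summed tRNA counts split by strand, although not every gene followed its strand. With palbociclib the 14 heavy-strand tRNA genes together had 60.1, 54.4 and 48.4 CPM, against 34.8, 33.3 and 28.3 with DMSO. The 8 light-strand genes together had 145, 129 and 122 CPM, against 317, 319 and 257. The light strand held 90.1, 90.6 and 90.1% of mitochondrial tRNA counts with DMSO and 70.7, 70.3 and 71.7% with palbociclib (each exact permutation p = 0.1). Of the 13 tested tRNA genes, 9 are on the heavy strand, where 6 rose and 3 were not called, and 4 on the light strand, where 3 fell and 1 was not called, beside 28.8% higher and 29.2% lower over all tested genes. The 6 include MT-TI and MT-TS2, which would not have passed the filter on their DMSO libraries alone, so no support for the split is taken from them. The sum of light-strand counts rested on MT-TN, MT-TC and MT-TP, which held 93.4 to 96.1% of it with DMSO and 87.4 to 90.2% with palbociclib. Of the 4 untested light-strand genes, 2 went the other way, higher with palbociclib without overlap but on few counts. MT-TQ had 1, 2 and 1 counts with DMSO and 3, 14 and 6 with palbociclib, and MT-TE had 8, 5 and 5 against 17, 9 and 15. On the heavy strand, MT-TL1 alone made up 21.7 of the mean 54.3 CPM with palbociclib and 12.1 of 32.1 with DMSO. MT-TT, MT-TD and MT-TW of that strand had lower means with palbociclib, with overlap and on few counts.

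The genes that carry this split are printed here with the anticodon in capitals (5′ to 3′ as transcribed, GENCODE release 29 on GRCh38). The light-strand genes that fell are those for asparagine, cysteine and proline:
MT-TN, 5657 to 5729, light strand: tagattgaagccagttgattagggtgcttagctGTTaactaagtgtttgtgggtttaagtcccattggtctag
MT-TC, 5761 to 5826, light strand: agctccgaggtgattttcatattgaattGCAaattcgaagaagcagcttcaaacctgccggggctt
MT-TP, 15956 to 16023, light strand: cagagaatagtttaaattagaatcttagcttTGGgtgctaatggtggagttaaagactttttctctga
The heavy-strand genes that rose with the smallest adjusted p are those for leucine (UUR codons), glycine and histidine:
MT-TL1, 3230 to 3304, heavy strand: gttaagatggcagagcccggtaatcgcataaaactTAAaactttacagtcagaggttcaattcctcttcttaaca
MT-TG, 9991 to 10058, heavy strand: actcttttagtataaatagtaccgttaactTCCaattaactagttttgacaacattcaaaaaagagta
MT-TH, 12138 to 12206, heavy strand: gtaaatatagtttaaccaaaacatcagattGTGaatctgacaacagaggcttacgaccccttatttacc
The printed letters are those of the gene. They do not hold the CCA that is added to a mature tRNA, and a count over them does not separate mature tRNA from uncut precursor.

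MT-TN and MT-TC had the largest tRNA counts and the largest falls. MT-TN had 2289, 2196 and 1538 counts with DMSO and 874, 705 and 670 with palbociclib, a 2.69-fold fall (-1.43, SE 0.12, edgeR adjusted p = 2.83e-08). MT-TC had 1964, 2069 and 1807 against 926, 794 and 820, a 2.31-fold fall (-1.21, SE 0.08, adjusted p = 7.47e-10). The light-strand origin of replication is known to lie between these genes. MT-TA, the next light-strand gene beyond MT-TN, had 3 to 11 counts per library, and MT-TY, which adjoins MT-TC on its other side, had 228, 187 and 255 against 205, 230 and 196 and was not called (-0.09, adjusted p = 0.548). MT-TP, which borders the control region, had 603, 690 and 600 against 371, 359 and 321, a 1.81-fold fall (-0.86, SE 0.09, adjusted p = 5.13e-07). Whether strand was used in counting is not given. If it was not, reads of the heavy-strand precursor opposite a light-strand gene cannot be told apart from its own.

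On the heavy strand, MT-TL1 had 219, 206 and 165 counts with DMSO and 420, 351 and 308 with palbociclib, a 1.82-fold rise (0.86, SE 0.13, edgeR adjusted p = 1.96e-05). MT-TH had 82, 77 and 66 against 169, 154 and 121 (0.97, SE 0.16, adjusted p = 5.43e-05). MT-TG had 42, 49 and 63 against 117, 128 and 100, a 2.23-fold rise (1.15, SE 0.18, adjusted p = 3.65e-05). In all 3 the palbociclib libraries lay above the DMSO libraries, and each lies directly downstream of an rRNA or mRNA that fell, MT-RNR2 (-0.98), MT-ND4 (-0.44) and MT-CO3 (-0.44) in the same order. Of the other tested heavy-strand tRNAs in such a place, MT-TI, after MT-ND1 (-0.24), was called on few counts (1.53), and the remaining 3 were not called: MT-TV follows MT-RNR1 (-0.42) and was at 0.70, MT-TR follows MT-ND3 (-0.45) and was at 0.09, and MT-TT follows MT-CYB (-0.24) and was at -0.28.

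**Figure D4:**
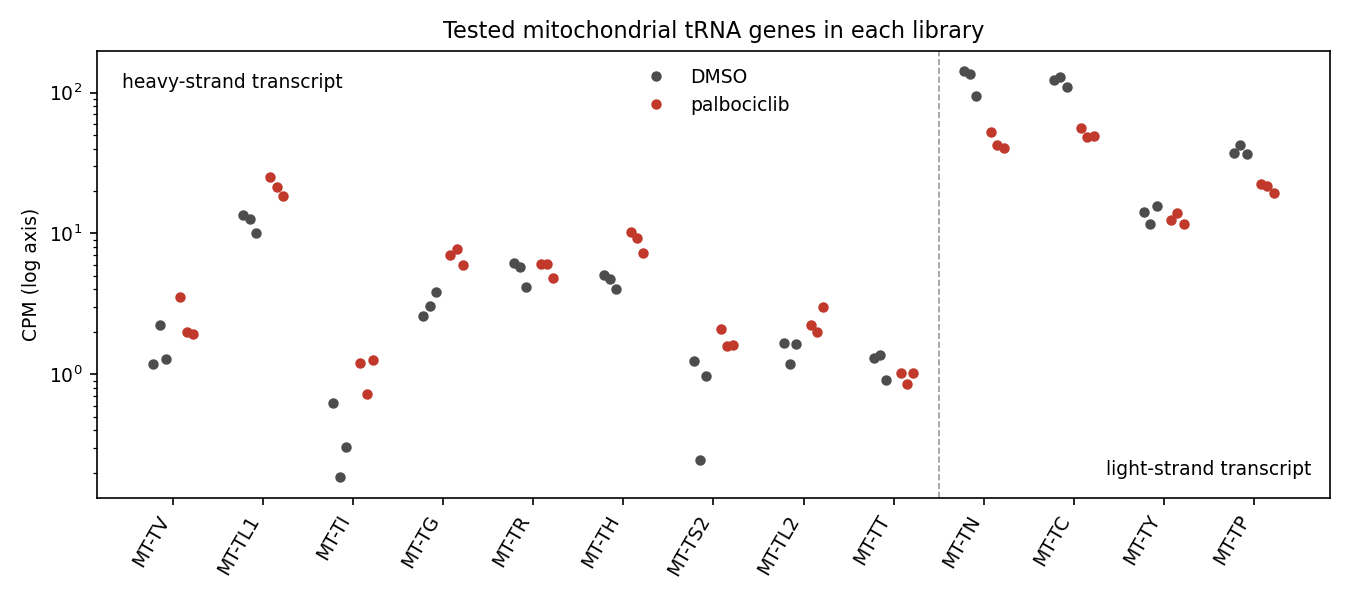
CPM (log axis) of the 13 tested mitochondrial tRNA genes in each of the 6 libraries, with heavy-strand genes left and light-strand genes right of the dashed line. Palbociclib libraries lie above DMSO libraries for MT-TL1, MT-TI, MT-TG, MT-TH, MT-TS2 and MT-TL2 and below them for MT-TN, MT-TC and MT-TP.

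The remaining called tRNAs rest on few counts. MT-TI (isoleucine) had 10, 3 and 5 counts with DMSO and 20, 12 and 21 with palbociclib (1.53, SE 0.46, edgeR adjusted p = 0.00886), a call that was lost without DMSO library 2 (adjusted p = 0.0530). MT-TS2 (serine, AGY codons) had 20, 4 and 16 against 35, 26 and 27 (1.12, SE 0.40, adjusted p = 0.0224), and lost its call without DMSO library 2 (adjusted p = 0.110) or palbociclib library 1 (adjusted p = 0.0848). MT-TL2 (leucine, CUN codons) had 27, 19 and 27 against 37, 33 and 50 (0.71, SE 0.27, adjusted p = 0.0342). Its call was lost without DMSO library 1 or 2 or palbociclib library 3 (adjusted p = 0.0507, 0.138 and 0.157). These 3 are thus calls that a single library decides, unlike those of MT-TL1, MT-TG and MT-TH. MT-TV, the valine tRNA between the rRNA genes, had 19, 36 and 21 against 59, 33 and 32 and was not called (0.70, SE 0.31, adjusted p = 0.0658). It passed without DMSO library 2 or palbociclib library 2 or 3 (adjusted p = 0.020, 0.0459 and 0.0264). MT-TR (arginine) had 100, 93 and 68 against 100, 100 and 80, and MT-TT (threonine) had 21, 22 and 15 against 17, 14 and 17, and neither was called (adjusted p = 0.663 and 0.492).

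A second fit scaled each library by the sum of its 13 mitochondrial mRNAs, so that a change is read against the mitochondrial mRNA pool and not against the nuclear genes. In this fit 5 of the 28 genes were lower and 14 higher, while 9.77% of all tested genes were lower and 56.7% higher. MT-RNR2 (-0.53, SE 0.08, edgeR adjusted p = 6.53e-05), MT-CO1 (-0.24, SE 0.06, adjusted p = 0.00326), MT-TN (-0.97), MT-TC (-0.75) and MT-TP (-0.40) fell relative to the pool. MT-ND2 (0.39, SE 0.07, adjusted p = 1.59e-04), MT-ND5 (0.31, SE 0.07, adjusted p = 0.00254), MT-ATP6 (0.25), MT-ND1 (0.21) and MT-CYB (0.21) rose relative to it, as did MT-TY (0.36) and 8 heavy-strand tRNAs. The calls of MT-ND1 and MT-CYB were lost without DMSO library 2 (adjusted p = 0.0791 and 0.0808) or palbociclib library 1 (0.0882 and 0.0512), and that of MT-TY without DMSO library 1 or 2 or palbociclib library 2 (0.113, 0.184 and 0.142). MT-TR (0.55, adjusted p = 0.00974) and MT-TV (1.15, adjusted p = 0.00625) were among the 8 tRNAs, although neither was called against all genes. The 8 also hold MT-TI and MT-TS2. This fit used the same filter, which neither would have passed on its DMSO libraries alone, so no support is taken from their rise here either. MT-CO1 alone made up 26.5% of mitochondrial counts with DMSO and 23.3% with palbociclib, and the direction of genes near 0 depends on how the pool is summarised. With the median ratio over the 13 mRNAs in place of their sum, 7 were lower and 10 higher. MT-ND1, MT-ATP6, MT-CYB and MT-TY then lost their call, MT-CO2 (-0.23, adjusted p = 0.0106) and MT-ND4L (-0.27, adjusted p = 0.0337) became lower, and MT-RNR1, MT-CO3, MT-ND3, MT-ND4 and MT-ND6, none of them called, turned from above to below 0.

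Nuclear copies of mitochondrial genes can take reads from them. The table lists 407 such copies, of which 337 had no count in any library, and 3 on chromosome 1 held 99.0% of all their counts. MTATP6P1, which differs from MT-ATP6 at 10 of 681 bases (98.5% identical), had 5220, 4765 and 4141 counts with DMSO and 3716, 3788 and 3606 with palbociclib. Its log2 fold change was -0.35 (SE 0.07, edgeR adjusted p = 5.92e-04), against -0.20 for MT-ATP6. MTND2P28 (98.4% identical to MT-ND2) had 3252, 3090 and 2577 against 2561, 2614 and 2448 (-0.23, adjusted p = 0.0164, against -0.07 for MT-ND2). MTCO1P12 (98.7% identical to MT-CO1) had 2141, 2194 and 1827 against 1390, 1255 and 1457 (-0.59, adjusted p = 5.46e-06, against -0.70 for MT-CO1). The copies thus held 7.04 to 8.20% of the summed counts of MT-ATP6 and its copy, 7.73 to 9.0% for MT-ND2 and 0.946 to 1.16% for MT-CO1. Reads that both loci could give are uncertain between them. MTND4P12, on chromosome 5, had 4 to 24 counts and was not called (-0.47, adjusted p = 0.383).

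Nuclear genes of mitochondrial function went both ways. In 11 lists, 177 of 179 genes were tested, of which 69 were higher and 29 lower, beside 28.8% and 29.2% of all tested genes, with a median log2 fold change of 0.10 against -0.01. Among 18 genes of mitochondrial DNA transcription and replication, 7 were higher and 4 lower. The helicase TWNK (0.90, SE 0.08, edgeR adjusted p = 2.03e-08), the exonuclease MGME1 (0.65) and the initiation factor TFB2M (0.76) rose, and PRIMPOL, which primes DNA synthesis, fell (-1.36). Given for their role and chosen after their values were seen, POLRMT, the mitochondrial RNA polymerase, had 2828, 2569 and 3237 counts with DMSO and 2591, 2847 and 3295 with palbociclib (0.01, SE 0.09, adjusted p = 0.942), while TFAM, which packages the genome and activates its promoters, rose (0.33, SE 0.08, adjusted p = 0.00203), as did the elongation factor TEFM (0.62, adjusted p = 4.34e-04).

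Of 25 genes of mitochondrial RNA processing and modification, 15 were higher and 2 lower, beside 28.8% and 29.2% of all tested genes, with a median of 0.30. ALKBH1 (0.98, SE 0.09, edgeR adjusted p = 9.31e-08) and TRMU (0.74), both of which modify tRNA, MRM3 (0.95), a methyltransferase of 16S rRNA, and the methyltransferase TRMT61B (0.75) rose. Of 16 genes of RNA stability and decay, 6 were higher and 2 lower, against the same background. PDE12, which removes poly(A) tails (1.02, SE 0.08, adjusted p = 1.06e-08), the poly(A) polymerase MTPAP (0.69), FASTKD5 (0.61) and ERAL1, a chaperone of 12S rRNA (0.34), rose. LRPPRC, which stabilises mitochondrial mRNAs and was also chosen after its values were seen, was at -0.01 (adjusted p = 0.869). The 14 translation factors went both ways, with 5 higher and 5 lower (28.8% and 29.2% over all tested genes): MRRF (0.55) and MTRF1L (0.71) rose, and GFM2 (-0.66) and GUF1 (-0.72) fell.

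The nuclear-encoded partners of the mitochondrial subunits went both ways. Over complexes I, III, IV and V, 74 of 75 subunit genes were tested, 19 were higher and 10 lower, and the median was 0.04. For complex IV, whose 3 mitochondrial mRNAs all fell, 2 of 11 nuclear subunits rose, COX8A (0.26, SE 0.08, edgeR adjusted p = 0.00642) and COX6B1 (0.22, SE 0.06, adjusted p = 0.00799), and 9 were not called. For complex I, 7 of 36 were higher, among them NDUFA8 (0.47) and NDUFB4 (0.33), and 5 lower, among them NDUFB5 (-0.40) and NDUFS1 (-0.30). For complex III, 4 of 9 were higher, UQCR11 (0.80), UQCRFS1 (0.50), UQCR10 (0.44) and UQCRC1 (0.21), and 3 lower. For complex V, 6 of 18 were higher, including ATP5MF (0.48) and ATP5PB (0.32), and 2 lower, ATP5F1D (-0.55) and ATP5MC2 (-0.42). These shares of higher and lower genes can be read against 28.8% and 29.2% of all tested genes.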

How the data were processed

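RNA was sequenced from DU145 cells given palbociclib or DMSO, 3 libraries each. Per the labels' protocols the kit was directional and the input 1.3 µg of total RNA. The authors deposited raw read counts per gene, with gene lengths, strands and coordinates. The submitters' processing notes name build hg38. For this table the aligner, counter, annotation release and use of strand are not stated in the sources used here. Table columns were matched to samples by treatment and number, and 0 columns of values went unused. No row lacked a gene identifier.

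The deposited counts entered edgeR 4.0.16 (R 4.3.3): filterByExpr by group (min.count 10), TMM scaling, quasi-likelihood F test, Benjamini-Hochberg adjustment over 15361 genes at 0.05. TMM factors were 0.988 to 1.017. CPM and FPKM were computed here from counts, library totals and listed lengths, as mean ± SD. Shares and ratios were tested by exact two-sided permutation over 6 libraries. A second fit used the summed mitochondrial mRNA counts as library size. Alternatives were RLE factors, library totals, mitochondrial counts left out of scaling, no filter, at least 5 CPM in 3 libraries, DESeq2 1.42.0, a replicate block and leaving out libraries. The procedure was tested on simulated data. Member sequences came from GENCODE release 29 (GRCh38), whose identifiers, coordinates and lengths matched for 37 of 37 genes, and copies were aligned with Biopython 1.88.

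The mitochondrial genes and all lists were chosen with earlier results of these data known. All mRNAs and rRNAs were named, tRNAs that passed the filter, up to 4 called genes per nuclear list in order of adjusted p (2 of a list without calls), and nuclear copies with a mean of at least 10 counts in either group. Genes given outside this rule are stated as such.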

Additional observations from a re-analysis of the deposited data

How the results depend on the processing

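Replacing TMM by RLE factors, or leaving mitochondrial counts out of scaling, left 15 mitochondrial genes lower and 6 higher. The median log2 fold change of all tested genes was -0.01 with TMM, 0.00 with RLE and -0.03 with library totals, which gave 17 lower and 6 higher (MT-ATP8 adjusted p = 0.0428, MT-ND5 adjusted p = 0.0364) and 4 lower complex V and 1 lower complex IV nuclear subunits. DESeq2 gave 15 and 5, with MT-TL2 at adjusted p = 0.0668. With no filter, which tests all 37 genes, 17 were lower and 10 higher. To the lower genes that setting adds MT-ND5 (adjusted p = 0.0134) and MT-ATP8 (adjusted p = 0.0350). To the higher genes it adds MT-TK (2.35), MT-TM (2.56) and MT-TV (0.67) of the heavy strand and MT-TQ (2.39) of the light strand. With at least 5 CPM in 3 libraries, where only 23 were tested, the count of higher genes was 3. Leaving out each library in turn, which also lets other genes pass the filter, gave 15 to 17 lower and 6 to 8 higher. Of the 28 genes tested with all 6 libraries, 4 to 7 were then higher, the fewest without DMSO library 2 (MT-TL1, MT-TG, MT-TH and MT-TV), and up to 3 were added by the filter. The same fits gave -1.63 to -1.38 points for the mitochondrial share, -3.85 to -3.02 for the rRNA share, -0.20 to -0.13 for the light-strand share, and 16 to 20 genes changed relative to the mRNA pool, where 19 changed with all 6. The light-strand share of mitochondrial counts was lower by 0.157 points with palbociclib, but restricted to mRNA, where MT-ND6 is the light-strand gene, it differed by 0.0229 points the other way (exact permutation p = 0.6). MT-TY turned to 0.0584 without both libraries numbered 3 and ranged from -0.213 to 0.0112 without single libraries, and MT-TR from -0.0564 to 0.202, each crossing 0 only without DMSO library 3. Without both libraries numbered 3, MT-TI (adjusted p = 0.0549) and MT-TL2 (0.134) were not called and MT-ATP8 was lower (-0.41, adjusted p = 5.51e-04). Relative to the mRNA pool, uncalled genes crossed 0: with the median of ratios MT-RNR1 (-0.0783), MT-CO3 (-0.0973), MT-ND3 (-0.101), MT-ND4 (-0.0913) and MT-ND6 (-0.0863), and without single libraries MT-ND6 (-0.0160 to 0.0868), MT-CO3 (-0.00696 to 0.0416), MT-ND3 (-0.0383 to 0.0418) and MT-RNR1 (-0.0164 to 0.121). The causes were not tested.

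Same-numbered libraries deviated together with r = 0.020, 0.036 and 0.128 across genes. Not every pair was over 0.1, not every library correlated best with its own number, and the labels give no shared batch. The numbers were therefore not taken to pair the libraries in the main fit. The libraries numbered 3 did correlate best with each other (0.128), and other pairs that held a library 3 were at -0.087 to -0.050. Whether the libraries numbered 3 share a batch was not tested. The replicate block gave 17 lower and 6 higher mitochondrial genes (MT-ATP8 adjusted p = 0.0176, MT-ND5 adjusted p = 6.36e-04), 22 changed relative to the mRNA pool, 9953 against 8924 calls over all genes, and 119 against 98 calls in the nuclear lists (complex I 13 higher, complex IV 4 higher and 2 lower, complex V 5 lower, import 1 lower, mitophagy 1 higher). Depth limits the 9 untested tRNAs, and the 3 libraries per group limit every exact test to p = 0.1.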

Other observations

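Further nuclear lists hold genes of protein import and mitochondrial mass, of biogenesis and of mitophagy. Only their RNA was measured, and whether the amount of mitochondria changed was not tested. Of 14 genes of protein import and mitochondrial mass, 11 were higher with palbociclib by edgeR and 3 were not called, beside 28.8% higher and 29.2% lower over all tested genes, with a median log2 fold change of 0.34 against -0.01 over all tested genes. TIMM23, the channel of the inner membrane translocase, had 1448, 1617 and 1492 counts with DMSO and 2541, 2532 and 2413 with palbociclib (0.71, SE 0.07, adjusted p = 9.48e-08). The outer membrane channel VDAC2 (0.53, SE 0.06), the import receptor TOMM70 (0.60, SE 0.08) and the chaperonin subunit HSPE1 (0.74, SE 0.12) rose as well. Among 9 regulators of mitochondrial biogenesis, 6 were higher and 1 lower, against the same background. The coactivators PPRC1 (0.93, SE 0.07, adjusted p = 3.75e-09), PPARGC1A (1.11, SE 0.12, 9.02 ± 1.02 CPM with DMSO and 19.1 ± 2.16 with palbociclib, SD) and PPARGC1B (0.36, SE 0.10) rose, and GABPB2 (-1.23, SE 0.10) fell.

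Of 8 mitophagy genes, 7 were tested, 5 were lower by edgeR and 2 were not called, beside 29.2% lower and 28.8% higher over all tested genes, with a median of -0.28. The receptors BNIP3 (-0.37, SE 0.07, adjusted p = 2.04e-04), BNIP3L (-0.28, SE 0.07), BCL2L13 (-0.32, SE 0.07) and PHB2 (-0.31, SE 0.07) fell. In BNIP3 the counts were 1750, 1735 and 1665 with DMSO and 1391, 1370 and 1244 with palbociclib, without overlap.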
